A study of Homo sapiens with 4 samples.

Results

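The genes described here are the 4 syndecans (SDC1, SDC2, SDC3 and SDC4), transmembrane core proteins that carry heparan sulfate chains, and 6 enzymes that write or edit the sulfation of those chains (SULF1, SULF2, HS6ST1, HS6ST2, HS2ST1 and NDST1). They were taken by gene symbol, as a list chosen with earlier results of these data known. All 10 were found among the 58365 rows of the expression table. NDST1 and HS6ST2 each had 2 rows, and the row with the higher mean was used. H1 cells, an established human embryonic stem cell line, were collected at day 2 of hematopoietic differentiation. All 4 samples received 40 ng/ml activin A and 50 ng/ml BMP4 by the sample labels, and the study's methods give these amounts the other way round. The groups compared were 2 samples given DMSO, the solvent control, and 2 samples given IWP2, a small-molecule inhibitor of Porcupine, the acyltransferase that Wnt ligands need for secretion. The dose of IWP2 is not given in the sources used here. The comparison asks how these genes were expressed in differentiating cells with or without this inhibitor. How far Wnt secretion was blocked is not known from these data.

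Heparan sulfate is a long sugar chain built on core proteins such as the syndecans, the glypicans, perlecan and agrin. Its sulfate groups decide which growth factors it holds, and Wnt, BMP, FGF and Nodal family ligands all meet it at the cell surface. In the Golgi, NDST1 removes acetyl groups and adds N-sulfate, HS2ST1 adds sulfate to the uronic acid, and HS6ST1 and HS6ST2 add 6-O-sulfate to glucosamine. SULF1 and SULF2 act later and outside the cell, where they strip 6-O-sulfate from finished chains. Syndecans also bind cytoplasmic partners through a short conserved tail, and their outer part can be shed by proteases.

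The values are FPKM, fragments per kilobase of transcript scaled to the total of mapped fragments, so levels can be set side by side between genes. Differences were tested with limma on log2(FPKM + 1) over the 15980 rows with a mean of at least 0.5 FPKM, and a gene was called at a Benjamini-Hochberg adjusted p under 0.05. On that scale a fold change of a low gene is understated. With 2 samples against 2, an exact permutation test of a single gene cannot go below p = 0.333, so the calls rest on the variance that limma shares across genes. The labels do not say whether the 2 samples of a group were separate cultures, so p-values measure only the spread between these samples.

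Of 8 Wnt target genes, 5 fell with IWP2 and 3 were not called (ZNRF3, RNF43 and TNFRSF19). For these and the marker lists that follow, the share called over all rows tested was 13.2%. SP5, a direct target of the pathway, fell most, from 53.2 and 47.0 FPKM in the DMSO samples to 0.379 and 0.363 FPKM in the IWP2 samples (adjusted p = 0.00031 by limma). AXIN2 fell less, from 14.2 and 15.2 FPKM with DMSO to 6.45 and 5.58 FPKM with IWP2 (adjusted p = 0.00638 by limma). The 7 detected markers of primitive streak and mesoderm all fell, and their summed level was 889 to 1108 FPKM with DMSO and 49.4 to 53.3 FPKM with IWP2. Of 8 pluripotency markers, 4 rose and 1 fell. The 8 summed to 1309 to 1470 FPKM with DMSO and 2568 to 2571 FPKM with IWP2. POU5F1 was the largest part of that sum, with a mean of 661 FPKM with DMSO and 1849 FPKM with IWP2. SOX2 had the largest difference of the 4 that rose. It measured 0.193 and 0.174 FPKM with DMSO and 35.6 and 36.1 FPKM with IWP2 (log2 difference 4.96; adjusted p = 0.00031 by limma). TDGF1, the 1 that fell, had means of 212 and 101 FPKM. Of 5 definitive endoderm markers 3 fell, and all 5 summed to 134 to 204 FPKM with DMSO and 95.8 to 113 FPKM with IWP2. SOX17, which was not called, made up most of that sum, at 155 and 104 FPKM with DMSO and 79.7 and 94.9 FPKM with IWP2. Amnion and trophoblast markers split, with 2 higher and 2 lower of 6 and sums of 303 to 391 and 181 to 206 FPKM. HAND1, which fell, was the largest part of these sums, at 234 and 322 FPKM with DMSO and 101 and 119 FPKM with IWP2. Of the 6 hemato-endothelial markers 2 were tested, KDR fell, GATA1 was listed at 0 in all samples, and the sum was 54.9 to 62.6 FPKM with DMSO and 37.2 to 39.8 FPKM with IWP2. Neuroectoderm markers summed to at most 1.59 FPKM in any sample, and 1 of the 4 was tested and limma did not call it. Its unadjusted p was under 0.05, as was that of 4584 of the 15980 rows tested. The part of these markers in the results on heparan sulfate genes was not tested. In bulk samples, fewer cells of a type and less RNA per cell cannot be told apart.

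The sequences before the start sites of 4 of these genes are shown because the genes differ both in response and in base composition: SULF2 fell, HS6ST2 rose, SDC1 fell and SDC4 was not called. Each is the 250 bases ahead of the RefSeq start site nearest to the deposited start, on GRCh38.p14, written 5′ to 3′ on the gene's strand, which is the minus strand for all 4. Capitals mark CpG dinucleotides. The windows are chr20:47786628-47786877 for SULF2, chrX:132961371-132961620 for HS6ST2, chr2:20225476-20225725 for SDC1 and chr20:45348425-45348674 for SDC4.
SULF2: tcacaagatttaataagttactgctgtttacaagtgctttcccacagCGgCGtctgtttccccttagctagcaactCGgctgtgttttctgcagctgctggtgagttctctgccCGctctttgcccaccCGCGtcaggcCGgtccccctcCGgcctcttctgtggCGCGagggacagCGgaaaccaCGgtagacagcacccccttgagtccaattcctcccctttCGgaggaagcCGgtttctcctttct
HS6ST2: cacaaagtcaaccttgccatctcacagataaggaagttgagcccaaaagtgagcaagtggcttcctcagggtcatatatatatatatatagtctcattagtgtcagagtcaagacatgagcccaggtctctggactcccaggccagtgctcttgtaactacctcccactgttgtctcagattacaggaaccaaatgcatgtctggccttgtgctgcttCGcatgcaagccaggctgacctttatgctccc
SDC1: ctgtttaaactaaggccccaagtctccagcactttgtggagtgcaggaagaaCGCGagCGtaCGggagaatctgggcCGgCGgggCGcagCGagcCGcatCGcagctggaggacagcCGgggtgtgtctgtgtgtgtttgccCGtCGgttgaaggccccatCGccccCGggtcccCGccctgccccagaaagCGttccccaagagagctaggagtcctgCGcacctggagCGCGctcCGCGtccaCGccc
SDC4: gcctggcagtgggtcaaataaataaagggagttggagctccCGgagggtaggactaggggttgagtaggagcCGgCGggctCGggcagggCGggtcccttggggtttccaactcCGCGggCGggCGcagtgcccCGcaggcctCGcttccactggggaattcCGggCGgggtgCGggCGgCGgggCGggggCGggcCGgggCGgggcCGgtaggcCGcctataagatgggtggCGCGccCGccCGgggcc

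The HS6ST2 window held 1 CpG, against 14 in SULF2, 23 in SDC1 and 26 in SDC4. The ratio of observed to expected CpG was 0.07 for HS6ST2, 0.71 for SULF2, 0.83 for SDC1 and 0.83 for SDC4, with a median of 0.56 over 35116 RefSeq windows of the same length. Windows were found for 8 of the 10 genes, all but SDC2 and SULF1. SULF2 had 4 RefSeq entries and SDC1 had 2, and only the window nearest the deposited start was searched. Which start these cells used is not known. A few short motifs were searched on both strands. The TCF/LEF core, as CTTTGAT or CTTTGAA, was in 0 of the 8 windows, and in 2.3% and 3.8% of all windows, respectively. The GC box GGGCGG was in 6 of 8 windows, all but SULF2 and HS6ST2, with 8 matches in SDC4, and in 42.6% of all windows. The E-box CAGGTG was in 3 of 8 windows, those of SDC1, SDC3 and NDST1, and in 17.5% of all. The NDST1 window lies 11961 bases from the outermost start of the deposited row. Motif matches are letters in a window and were not tied to any binding.

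With IWP2, the transmembrane core protein SDC2 and the sulfotransferase HS6ST2 rose, and SDC1, SULF1 and SULF2 fell. SULF2 changed most, with a mean 3.98 times higher in DMSO than in IWP2 samples, and SDC2 was 2.16 times higher with IWP2. Of the 10 genes, 5 were called, 2 higher and 3 lower. Over all rows tested, 13.2% were called, 5.81% higher and 7.35% lower. The 10 genes were chosen with earlier results of these data known, and their count was not tested against this share. The median log2 difference of the 10 genes was -0.31, and that of all rows tested was -0.01.

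**Figure D1:**
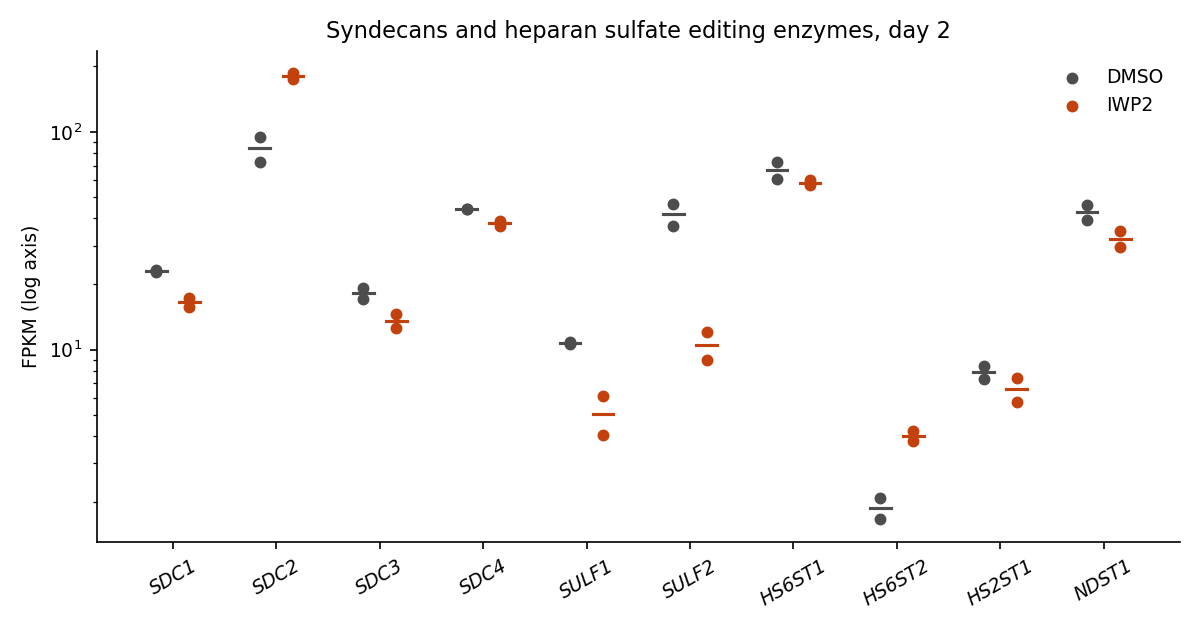
FPKM on a log axis for each of the 10 genes, with a point for each sample and a bar at the mean of the 2 samples of a group. SDC2 and HS6ST2 sit higher with IWP2, SULF1 and SULF2 sit lower, and the points of HS2ST1 overlap between the groups.

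SDC2, which is widely found on mesenchymal cells, was the most abundant syndecan and the most abundant of the 10 genes in both groups. Its FPKM was 95.0 and 73.0 in the DMSO samples and 176 and 186 in the IWP2 samples. Both IWP2 samples lay above both DMSO samples. The log2 difference was 1.11 ± 0.14 (SE, n = 2 and 2; adjusted p = 0.0107). The call was kept without either DMSO sample (adjusted p = 0.0286 and 0.0356) and lost without either IWP2 sample (0.119 and 0.114). Each of these fits, with a DMSO or an IWP2 sample left out, has 1 degree of freedom before limma's pooling and assumes that the lone sample varies like the other group.

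SDC1, the syndecan typical of epithelia, moved the other way. Its FPKM was 23.3 and 22.7 with DMSO and 15.7 and 17.3 with IWP2, without overlap. The log2 difference was -0.46 ± 0.10 (SE; adjusted p = 0.0415). This was the called gene nearest the threshold. The call was lost when the samples were scaled to a common upper quartile (adjusted p = 0.0578), when the variance was fitted without a trend (0.0727), and whichever of the 4 samples was left out (0.125 to 0.228).

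SDC3 and SDC4 had lower values with IWP2 in both samples but did not pass the threshold. SDC3, known best from neural tissue, measured 17.0 and 19.3 FPKM with DMSO and 14.6 and 12.5 FPKM with IWP2, a log2 difference of -0.39 with a 95% interval of -0.71 to -0.08 (adjusted p = 0.11). SDC4, a focal adhesion component, measured 44.0 and 44.4 FPKM with DMSO and 37.1 and 39.1 FPKM with IWP2, a log2 difference of -0.21 with an interval of -0.42 to -0.002 (adjusted p = 0.17). The groups did not overlap for either gene. A difference as large as that of SDC2 lay outside both intervals.

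As SDC2 rose and the others did not, the make-up of syndecan mRNA shifted. SDC2 took 53.0% and 45.8% of the summed syndecan FPKM in the DMSO samples and 72.3% and 73.0% in the IWP2 samples. The share of SDC1 was 13.0% and 14.2% with DMSO and 6.46% and 6.76% with IWP2, and the share of SDC4 was 24.5% and 27.9% against 15.3% and 15.3%. The summed level of the 4 syndecans was 169 ± 14.1 FPKM with DMSO and 249 ± 8.42 FPKM with IWP2 (SD, n = 2 each). These shares are given as values, with no test.

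**Figure D2:**
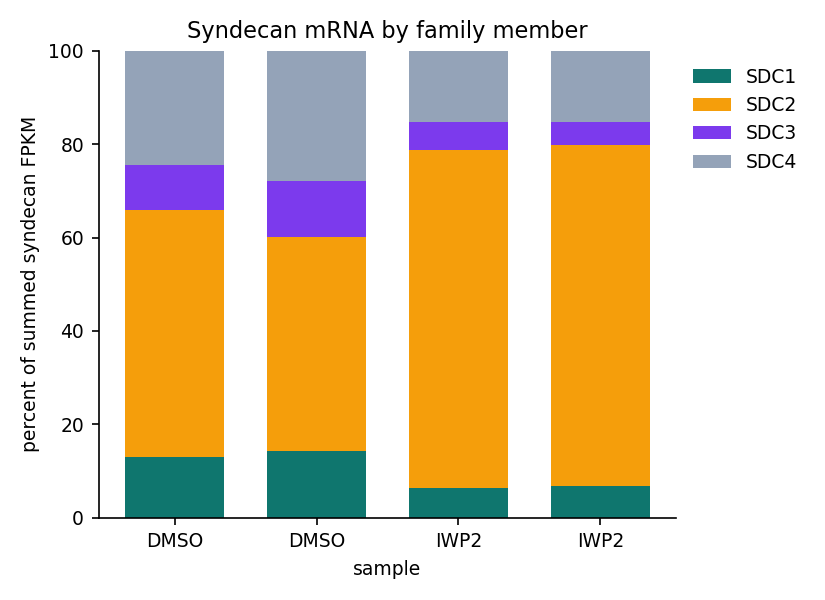
Share of the summed FPKM of SDC1 to SDC4 taken by each gene, in percent, with a bar for each of the 4 samples. SDC2 fills 45.8% to 53.0% of the DMSO bars and 72.3% to 73.0% of the IWP2 bars.

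Both extracellular 6-O-endosulfatases fell. SULF2 measured 37.0 and 46.5 FPKM with DMSO and 12.0 and 8.98 FPKM with IWP2, so the lowest DMSO value was above the highest IWP2 value. Its log2 difference was -1.90 ± 0.18 (SE; adjusted p = 0.00494). The call was kept without either DMSO sample (adjusted p = 0.0402 and 0.0421) and lost without either IWP2 sample (0.0555 and 0.0617). SULF1, the closest relative of SULF2, measured 10.6 and 10.9 FPKM with DMSO and 4.06 and 6.11 FPKM with IWP2. Its log2 difference was -0.97 ± 0.19 (SE; adjusted p = 0.034), and the call was lost whichever of the 4 samples was left out (0.0731 to 0.149).

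SULF2 mRNA exceeded SULF1 mRNA in every sample. The ratio of SULF2 to SULF1 was 3.49 and 4.28 in the DMSO samples and 2.96 and 1.47 in the IWP2 samples. The ratios of the IWP2 samples lay farther from each other than the higher of them lay from the nearest DMSO sample, so no difference between groups is read from this ratio. The summed sulfatase level was 52.5 ± 6.86 FPKM with DMSO and 15.6 ± 0.677 FPKM with IWP2 (SD, n = 2 each).

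SULF2 shares exonic sequence with neighbours on the opposite strand. The overlap was 96 bases with NCOA3 and 212 bases with an antisense transcript, AL354813.1, in GENCODE 29. If the libraries did not mark strand, reads from those bases cannot be told apart. NCOA3 measured 4.61 to 5.09 FPKM over all samples and AL354813.1 at most 0.06 FPKM. Of the distinct 50-base words in SULF2 transcripts, 2.46% were also found in other genes, and for SULF1 the figure was 0.14%.

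Of the 6-O-sulfotransferases among the 10 genes HS6ST2 rose and HS6ST1 was not called. HS6ST2 was the lowest of the 10 genes in both groups, at 2.09 and 1.66 FPKM with DMSO and 4.24 and 3.81 FPKM with IWP2. Both IWP2 values were above both DMSO values, and the ratio of the means was 2.15. The log2 difference was 0.81 ± 0.16 (SE; adjusted p = 0.034), and the call was lost whichever of the 4 samples was left out (0.0795 to 0.216). HS6ST1 was far more abundant, at 60.5 and 72.7 FPKM with DMSO and 56.9 and 59.9 FPKM with IWP2. Its values were lower with IWP2 without overlap, but the log2 difference of -0.18 had an interval of -0.47 to 0.11 (adjusted p = 0.368).

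HS6ST2 was a small part of the summed HS6ST1 and HS6ST2 mRNA. It was 3.35% and 2.23% of the sum of HS6ST1 and HS6ST2 in the DMSO samples and 6.94% and 5.98% in the IWP2 samples. The sum itself was 68.4 ± 8.33 FPKM with DMSO and 62.5 ± 1.83 FPKM with IWP2 (SD, n = 2 each), which overlapped. Set against each other, the mRNA of enzymes that remove 6-O-sulfate was 76.1% and 77.1% of the mRNA of those that add it with DMSO, and 26.2% and 23.7% with IWP2. This compares mRNA levels and not enzyme activity.

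HS6ST1 has a pseudogene copy, and 15.1% of the 50-base words in its transcripts were also found in other genes, all of these in HS6ST1P1. HS6ST1P1 measured 0.0405 to 0.661 FPKM. The split of reads between them is uncertain where the words are shared. None of the 50-base words of HS6ST2 or of any of the 4 syndecans was found in another gene.

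The enzymes of the earlier sulfation steps were not called. NDST1 measured 39.5 and 46.3 FPKM with DMSO and 35.0 and 29.6 FPKM with IWP2, without overlap. Its log2 difference was -0.40 with an interval of -0.73 to -0.07 (adjusted p = 0.117). Its antisense neighbour NDST1-AS1, which overlaps 68 of its exonic bases, was listed at 0 in all samples. HS2ST1 measured 7.36 and 8.39 FPKM with DMSO and 5.75 and 7.42 FPKM with IWP2, and it was the 1 gene of the 10 whose groups overlapped. Its log2 difference was -0.23 with an interval of -0.64 to 0.17 (adjusted p = 0.395). Of its 50-base words, 9.12% were shared with AC093155.3, a gene annotated over the same locus, which measured at most 0.127 FPKM. The other 9 of the 10 genes had groups that did not overlap, as did 58.6% of all rows tested.

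**Figure D3:**
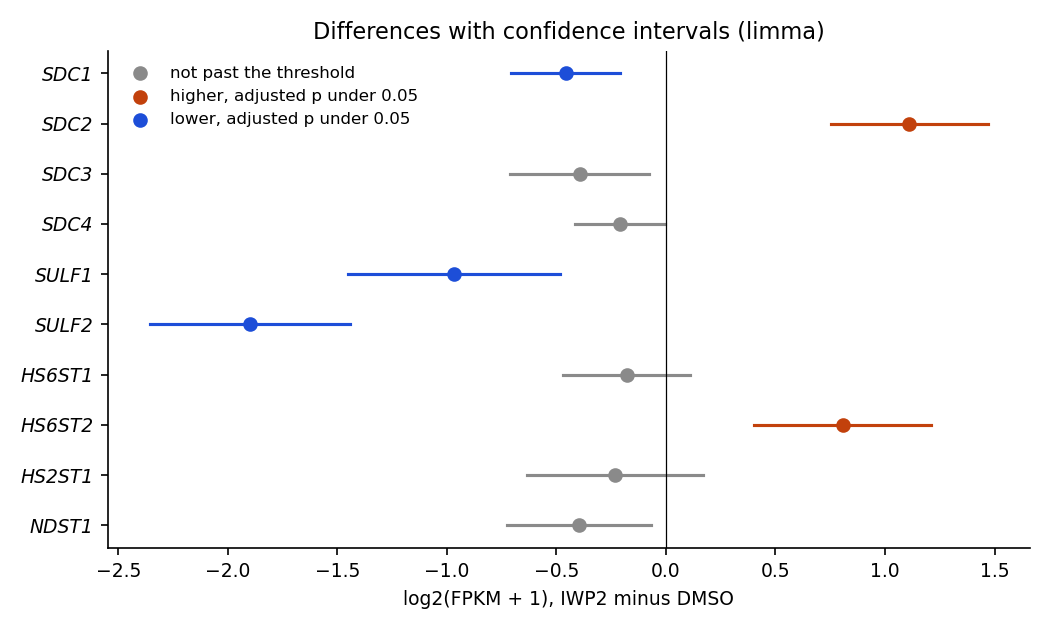
Difference in log2(FPKM + 1), IWP2 minus DMSO, for each of the 10 genes, with 95% intervals from limma, coloured by call. SULF2 at -1.90 and SDC2 at 1.11 lie farthest from 0, and the intervals of HS6ST1 and HS2ST1 cross 0.

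The order of levels was similar at its top and changed in its middle. With DMSO, SDC2 was followed by HS6ST1, and the 2 genes were nearly level in the second DMSO sample, at 73.0 and 72.7 FPKM. Then came SDC4, NDST1 and SULF2, which differed from each other by less than their spread. SDC1, SDC3, SULF1, HS2ST1 and HS6ST2 came next in that order, each apart from its neighbour. With IWP2, SULF2 stood below SDC1 and SDC3, and HS2ST1, SULF1 and HS6ST2 closed the order, with SULF1 overlapping both of its neighbours. By mean level over the 4 samples, SDC2 stood at percentile 96.1 of the rows tested, HS6ST1 at 90.9 and HS6ST2 at 30.1.

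The genes lie apart in the genome. On GRCh38, as the deposited rows give it, SDC1 is at chr2:20200797-20225433 and HS6ST1 at chr2:128236716-128318577, SDC3 at chr1:30869467-30908761 and HS2ST1 at chr1:86914648-87109998, and SDC4 at chr20:45325288-45348424 and SULF2 at chr20:47656348-47786616. NDST1 is at chr5:150485818-150558211, HS6ST2 at chrX:132626016-132961395, and SDC2 and SULF1 are both on chromosome 8. All 10 are annotated as protein coding in GENCODE 29, with between 1 transcript for SDC4 and 23 for SULF1. A single value per gene was deposited, so a change of start site or isoform would not be seen.

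The rest of the heparan sulfate pathway was read from lists of 67 genes by role, which include chondroitin sulfate enzymes. In the lists 61 were tested, 6 rose and 9 fell, with a median log2 difference of -0.14. As above, 13.2% of all rows tested were called.

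The largest falls were among the 3-O-sulfotransferases, which add the rarest sulfate group of the chain. HS3ST3A1 measured 47.0 and 57.7 FPKM with DMSO and 2.09 and 2.47 FPKM with IWP2, a mean 23.0 times higher in the DMSO samples (log2 difference -4.02 ± 0.14, SE; adjusted p = 0.000439). This call held whichever of the 4 samples was left out (adjusted p 0.0115 to 0.0281). HS3ST3B1 fell from 6.16 and 6.14 to 1.43 and 1.43 FPKM (log2 difference -1.56 ± 0.13, SE; adjusted p = 0.00407, lost without either IWP2 sample at 0.0749 and 0.067). HS3ST1 fell from 9.93 and 11.7 to 0.458 and 1.54 FPKM (log2 difference -2.61 ± 0.29, SE; adjusted p = 0.00763, kept only without the second IWP2 sample at 0.0309 and otherwise 0.0531 to 0.0673). HS3ST2 rose from 0.535 and 0.381 to 2.34 and 3.25 FPKM (log2 difference 1.37 ± 0.20, SE; adjusted p = 0.0151, and 0.0709 to 0.121 with each sample left out). HS3ST3A1 and HS3ST3B1 are near copies over part of their length, and 20.4% and 10.3% of their 50-base words were shared with other genes, so their separate values are uncertain there. With the 8 other O-sulfotransferases taken as a list, 6 were tested, 1 rose, 3 fell and the median log2 difference was -0.77. Over all rows tested, 13.2% were called and the median was -0.01. Of the rest of the list, HS3ST4 and HS3ST5 were not called, and HS6ST3 and HS3ST6 were too low to be tested.

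**Figure D4:**
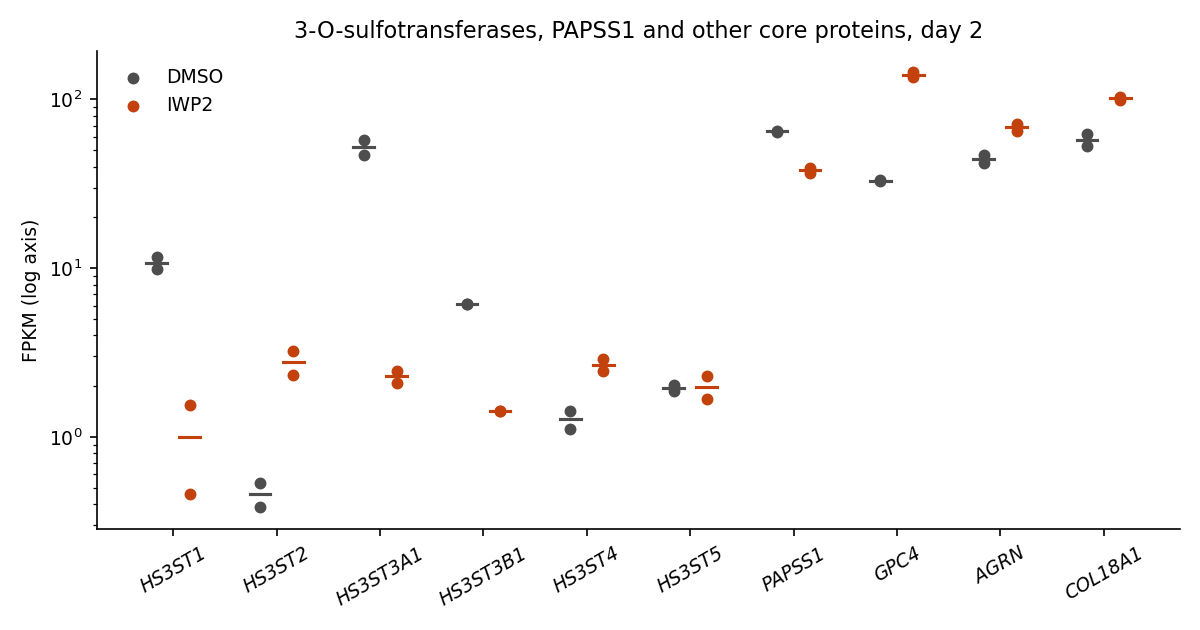
FPKM on a log axis for the 6 tested 3-O-sulfotransferases, PAPSS1 and 3 other heparan sulfate core proteins, with a point for each sample and a bar at each group mean. HS3ST3A1 goes from 47.0 and 57.7 FPKM to 2.09 and 2.47 FPKM, and GPC4 from 32.8 and 33.4 FPKM to 136 and 145 FPKM.

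The other core proteins rose where they were called. GPC4, a glypican, measured 32.8 and 33.4 FPKM with DMSO and 136 and 145 FPKM with IWP2, 4.25 times higher (log2 difference 2.05 ± 0.08, SE; adjusted p = 0.000508, and 0.0136 to 0.0282 with each sample left out in turn). COL18A1, the core of collagen XVIII, rose from 62.4 and 53.0 to 103 and 99.9 FPKM (log2 difference 0.81; adjusted p = 0.0112, lost without either IWP2 sample at 0.129 and 0.108). AGRN, agrin, rose from 47.0 and 41.8 to 72.0 and 64.6 FPKM (log2 difference 0.61; adjusted p = 0.0237, 0.0527 without the variance trend and 0.0709 to 0.175 with each sample left out). The list held 10 genes, of which 9 were tested, 3 rose and 6 were not called, where 13.2% of all rows tested were called.

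Calls in chain synthesis are given by list, and 13.2% of all rows tested were called. Of 6 linker enzymes XYLT2, which starts the chain on the core protein, rose from 5.40 and 5.67 to 9.09 and 8.67 FPKM (log2 difference 0.60; adjusted p = 0.0317, and 0.0954 to 0.212 with each sample left out), and the other 5 were not called. None of the 5 chain polymerases was called by limma, with 2 at an unadjusted p under 0.05, and EXT1 came nearest, at 39.2 and 30.9 FPKM with DMSO and 23.5 and 23.8 FPKM with IWP2 (adjusted p = 0.0623). EXT1 was named after its values were seen. Of the 4 genes for other N-sulfation and epimerase enzymes 3 were tested and limma called none, with 1 at an unadjusted p under 0.05. Over all 15980 rows tested, 4584 had an unadjusted p under 0.05. PAPSS1, which makes the sulfate donor for every one of these sulfotransferases, fell from 65.5 and 63.8 to 36.8 and 39.2 FPKM (log2 difference -0.75; adjusted p = 0.00719, kept only without the second DMSO sample at 0.0459 and otherwise 0.0544 to 0.0951), and the other 3 genes of sulfate donor synthesis and transport were not called.

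Among 10 enzymes of lysosomal and extracellular breakdown, 9 were tested and IDS alone was called, falling from 15.0 and 13.3 to 9.90 and 9.09 FPKM (log2 difference -0.53; adjusted p = 0.0457, 0.0578 with upper quartile scaling, 0.0648 without the variance trend and 0.0956 to 0.245 with each sample left out). Of 7 cytoplasmic partners and sheddases of the syndecans SDCBP alone was called. For both lists, the share called over all rows tested was 13.2%. SDCBP encodes syntenin, which binds the syndecan tail, and it fell from 77.3 and 66.6 to 46.5 and 44.4 FPKM (log2 difference -0.65; adjusted p = 0.0194, kept only without the second DMSO sample at 0.0433 and otherwise 0.0737 to 0.153). Apart from HS3ST3A1 and GPC4, each of the calls on these lists was lost without at least 1 of the 4 samples. The 15 calls, which include 4 chondroitin sulfate enzymes, became 5 and 7 without a DMSO sample and 2 and 3 without an IWP2 sample.

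**Figure D5:**
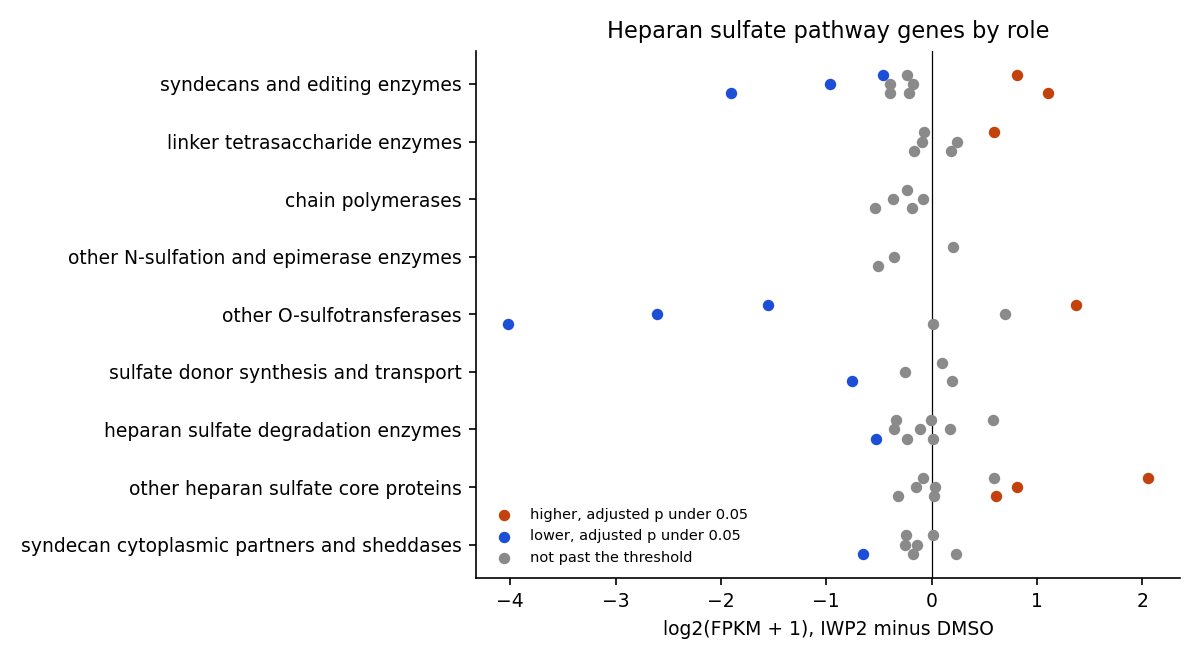
Difference in log2(FPKM + 1), IWP2 minus DMSO, with a point for each tested gene of the 10 genes described here and of 8 heparan sulfate lists, coloured by call. The lowest point is HS3ST3A1 at -4.02 and the highest is GPC4 at 2.05, and the chain polymerases and the other N-sulfation enzymes hold no coloured point.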

How the data were processed

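RNA-seq libraries (Illumina TruSeq, total RNA) were measured in 2 DMSO and 2 IWP2 samples. The deposited table gives FPKM per gene and locus for each sample, computed by the authors; its header names no unit, which was taken from the description of the table. The submitters' processing notes name BWA, Bowtie, RSEM and hg19, with no versions. Of 57876 gene IDs compared, 97.6% had exactly the GENCODE 29 locus on GRCh38, so coordinates are given on GRCh38. Column names with minus IWP2 were taken as DMSO. The column sums were 616418 to 653850 FPKM, and no read counts or depths were used, so depth is unknown.

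Rows with a mean of at least 0.5 FPKM over the 4 samples (15980 of 58365) were tested with limma 3.58.1 (R 4.3.3) on log2(FPKM + 1), with empirical Bayes, a mean-variance trend and Benjamini-Hochberg adjustment, without pairing. The code was tested on simulated data. Correlations of log2 values were 0.975 to 0.981 within and 0.938 to 0.948 between groups. Of each list, up to 3 called genes in each direction with the largest differences are named. The genes and lists were chosen with earlier results of these data known. Alternatives were another pseudocount, filter, scaling and variance model, a replicate block, and leaving out each sample.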

Additional observations from a re-analysis of the deposited data

How the results depend on the processing

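No direction of the 10 genes or of the called pathway and Wnt target genes reversed under any setting run. The marker genes were not followed over these settings. The call counts of 2104 rows, 5 of the 10 genes and 15 pathway genes became 2141, 5 and 16 with a pseudocount of 0.1, and 2134, 4 and 15 with upper quartile scaling. That scaling turned the balance of all calls from 929 higher and 1175 lower to 1081 higher and 1053 lower. Without a filter on low values 5447 rows were called, and NDST1 gained a call (adjusted p = 0.026), but most rows then had no variance and limma warned that the fit was unreliable. SDC1 lost its call with upper quartile scaling, without the variance trend and with the replicate block (adjusted p = 0.0645), and XYLT2 (adjusted p = 0.0555) and IDS (0.0532) with the block. Leaving out each sample in turn gave 179 to 897 rows, 0 to 2 of the 10 genes and 2 to 7 pathway genes. SDC2 and SULF2 kept their calls by limma without either DMSO sample, and none of the 10 genes was called without either IWP2 sample. With each sample left out, the log2 difference was 0.92 to 1.30 for SDC2 and -2.09 to -1.71 for SULF2. No other tool was run on these FPKM.

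With the replicate block, which uses the numbers in the column names, 1901 rows, 4 of the 10 genes and 14 pathway genes were called. Same-numbered samples deviated together with r = 0.14 over 15980 genes, and nothing in the labels ties them to a shared culture or day, so they share only a number. Groups of 2 samples are too small for a test of outlying samples, and without depth the counting error of low values such as those of HS6ST2 is unknown.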

Other observations

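The enzymes of chondroitin sulfate, the chain that competes with heparan sulfate for the same linker, were mostly not called. Of 13 genes 12 were tested, 1 rose, 3 fell and 8 were not called, with a median log2 difference of -0.26, where 13.2% of all rows tested were called and no test of the list was made. CHST11, a chondroitin 4-O-sulfotransferase, fell from 18.6 and 23.0 FPKM with DMSO to 10.5 and 11.0 FPKM with IWP2 (log2 difference -0.89 ± 0.13, SE; adjusted p = 0.0164 by limma). CSGALNACT2, which starts the chondroitin chain, fell from 6.33 and 5.66 to 2.87 and 3.02 FPKM (adjusted p = 0.0207 by limma). CHSY1, a chondroitin polymerase, fell from 25.5 and 28.7 to 16.8 and 18.0 FPKM (adjusted p = 0.0245 by limma). CHST15, which adds 6-O-sulfate to chondroitin 4-sulfate, rose from 5.70 and 4.48 to 11.0 and 9.57 FPKM (adjusted p = 0.0247 by limma). CHST11 kept its call only without the first DMSO sample (adjusted p = 0.0417 by limma), and the other 3 were lost whichever sample was left out, with adjusted p 0.0619 to 0.193.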
